A study of Mus musculus with 6 samples.

Results

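The 10 long noncoding RNAs described here were Neat1, Malat1, Gas5, Snhg1, Snhg5, Snhg8, Snhg12, Snhg15, H19 and Kcnq1ot1, taken by symbol from the 25328 genes of the deposited tables as RNAs linked to cellular stress. They were measured in 6 RNA-seq libraries of AML12 cells, a mouse hepatocyte line derived from mice carrying a human transforming growth factor alpha transgene, with wild-type given as the genotype in both groups. The 3 control libraries came from cells held in normoxia at 21% oxygen. The 3 H/R libraries came from cells kept for 6 h at 1% oxygen in medium without serum and glucose and then reoxygenated for 2 h, so the groups differed in medium as well as in oxygen. Both groups were otherwise grown with serum, an insulin, transferrin and selenium supplement and 40 ng/ml dexamethasone. The labels do not say whether replicates were separate cultures, and p-values therefore measure the spread between these libraries, which may be technical.

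Of the 10 RNAs, 6 are hosts of small nucleolar RNAs (snoRNAs). In such a gene the snoRNAs are cut out of the introns and guide the modification of ribosomal RNA, while the spliced host RNA is carried to the cytoplasm, where many hosts are translated briefly and destroyed by nonsense-mediated decay. Growth arrest and a slowdown of translation are known to let Gas5 and similar hosts accumulate. Neat1 is the nuclear scaffold of paraspeckles, bodies that assemble around it with the proteins Sfpq, Nono and Pspc1, and it is known to respond to hypoxia and other stress. Malat1, transcribed next to it, is kept in nuclear speckles with splicing factors. H19 and Kcnq1ot1 are imprinted RNAs of the distal end of mouse chromosome 7, H19 being abundant in fetal liver.

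Between 20438746 and 21854790 reads were counted per library. The hepatocyte keratins Krt8 and Krt18 were high in every library, at no less than 2359 and 1458 CPM (counts divided by the scaled library total, times 1000000), whereas Alb, the serum albumin gene, was low, at 24.3, 6.08 and 9.3 in control and 2.19, 1.58 and 1.75 in H/R replicates 1, 2 and 3. Of 10 tested hepatocyte markers 3 were higher after H/R and 7 lower, among them Afp (log2 -2.03) and Apoa1 (-0.99), the latter not without control replicate 1 or 3 or H/R replicate 1 (edgeR adjusted p = 0.054, 0.0951 and 0.132). Of 14 marker genes of other liver cells and of blood, 7 had no more than 2 counts in any library, but the biliary markers Krt7 and Sox9 were present and rose after H/R by 0.79 and 2.5 on the log2 scale (edgeR adjusted p = 2.14e-17 and 1.2e-24). Control replicate 1 stood apart: it held 61 counts of Serpina1a and 45 of Cyp2e1, both mature hepatocyte genes, against 1 or 0 elsewhere, and 5878 CPM of the 18S ribosomal RNA row Rn18s-rs5 against 1261 to 2068. Of 9 listed RNAs without a poly(A) tail 3 were tested, and edgeR called 0 of them, also at an unadjusted p under 0.05.

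All 10 RNAs share exon bases with at least 1 other row of the tables, from 1.33% of exon length for Kcnq1ot1 to 20.9% for Snhg1, mostly with snoRNA, microRNA and RNA-domain rows that lie inside them. Reads were evidently counted on each row they overlap: Wdr74 and the overlapping RP23-62O7.9, near Snhg1, had 1331 and 1330 counts in the first control library and 953 and 957 in the second H/R library. Reads of a row inside a host are therefore part of the host count as well. CPM values were compared after scaling by the trimmed mean of M values (TMM), and a change was called where the quasi-likelihood test of edgeR gave a p under 0.05 after Benjamini-Hochberg adjustment over 14020 tested genes (edgeR adjusted p).

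Of the 10 RNAs, 9 passed the filter on low counts and 5 were called, all of them higher after H/R: Gas5, Snhg12, Snhg8, Snhg1 and Neat1. By the same rule 62.8% of all tested genes were called, 31.0% as higher and 31.8% as lower. None of the 9 was lower, by edgeR at an unadjusted p under 0.05 or by DESeq2. The groups did not overlap for 5 of the RNAs, against 65.9% of all tested genes. Snhg12 alone also changed by at least 2-fold, which 8.52% of tested genes did, 4.25% upward and 4.27% downward. The median log2 fold change was 0.26 over the 9 RNAs and -0.01 over all tested genes. When libraries were scaled by their totals alone, the median of all genes moved to -0.12, and the same 5 RNAs were higher.

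**Figure D1:**
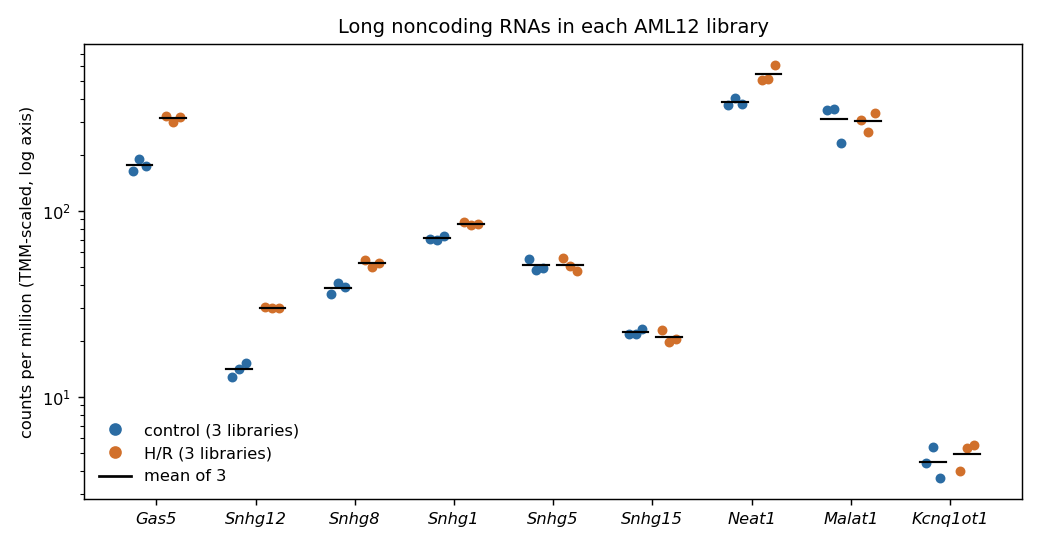
CPM in each library (log axis) for the 9 tested RNAs, with control in blue, H/R in orange and black bars for the mean of 3 libraries. The groups separate for Gas5, Snhg12, Snhg8, Snhg1 and Neat1 and overlap for Snhg5, Snhg15, Malat1 and Kcnq1ot1; H19, at 0 counts in 4 libraries, is left out.

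**Figure D2:**
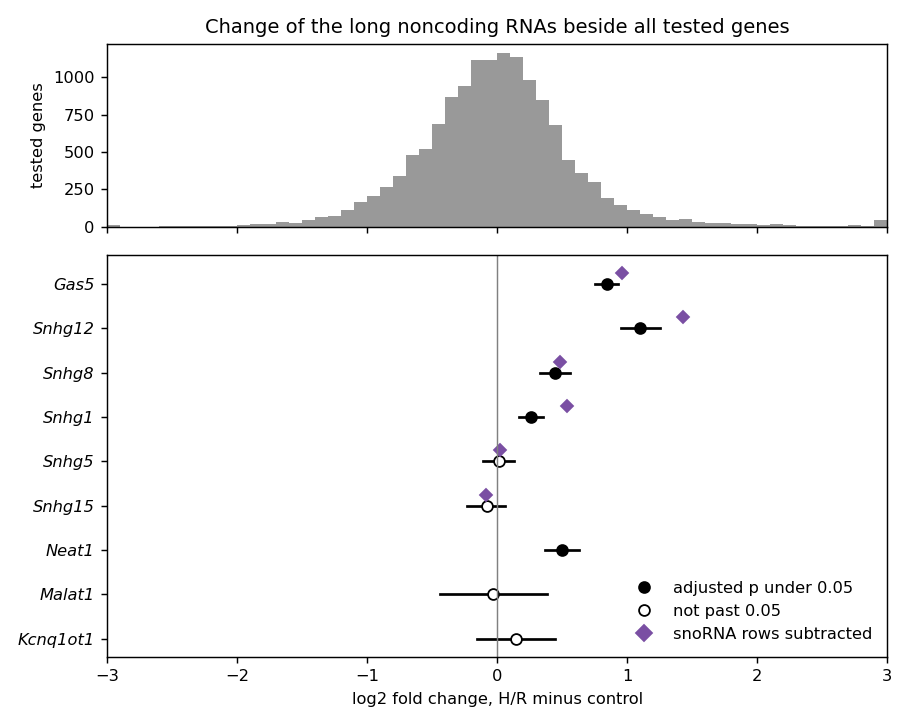
Lower panel: log2 fold change (H/R minus control) of each RNA with its 95% interval, filled where the adjusted p was under 0.05, and as diamonds the value after the counts of snoRNA rows were subtracted from their host. Upper panel: the same quantity for all 14020 tested genes, with values beyond 3 gathered in the end bins. Snhg12, at 1.10, lies highest among the RNAs, and subtraction moves Snhg12 and Snhg1 the most.

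Gas5 (growth arrest specific 5; chr1:161034422-161038539, plus strand, GRCm38) had the most counts of the 6 snoRNA hosts among the 10 RNAs. It measured 164, 189 and 174 CPM in control replicates 1, 2 and 3 and 325, 302 and 318 after H/R. The lowest H/R library was far above the highest control, and the RNA rose 1.79-fold (log2 0.84, SE 0.047, edgeR adjusted p = 2.61e-16). Of all tested genes, 5.99% had an equal or higher log2 fold change.

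Snhg12 (chr4:132308678-132311024, plus strand) changed the most. Its level was 12.8, 14.2 and 15.3 CPM in control and 30.5, 30.02 and 29.9 after H/R, so that the H/R libraries were close together and well above the controls. The rise was 2.14-fold (log2 1.10, SE 0.075, edgeR adjusted p = 6.89e-15), a size that 3.47% of tested genes reached. With library totals alone the log2 value was 0.99, just under 2-fold.

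Snhg8 (chr3:123507552-123508404, minus strand) measured 35.6, 40.9 and 38.8 CPM in control and 54.7, 50.1 and 52.1 after H/R. The groups did not overlap, and Snhg8 rose 1.36-fold (log2 0.44, SE 0.058, edgeR adjusted p = 3.44e-08). Snhg1 (chr19:8723475-8726443, plus strand), which codes for U22 and related snoRNAs, measured 70.8, 69.7 and 73.4 in control and 86.7, 83.7 and 85.4 after H/R. Its libraries were tight within each group and did not overlap between them, with a rise of 1.2-fold (log2 0.26, SE 0.047, edgeR adjusted p = 1.19e-05).

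Snhg5 and Snhg15 did not pass the test. Snhg5 (chr9:88521050-88522929, minus strand) was at 54.8, 48.3 and 49.4 CPM in control and 55.5, 50.7 and 47.3 after H/R, with overlapping groups (log2 0.01, 95% interval -0.11 to 0.13, edgeR adjusted p = 0.896). Snhg15 (chr11:6525591-6528760, minus strand) was at 21.8, 21.8 and 23.2 in control and 22.9, 19.8 and 20.5 after H/R (log2 -0.08, 95% interval -0.23 to 0.06, edgeR adjusted p = 0.345). Only with library totals alone did Snhg15 pass, as lower (log2 -0.19, adjusted p = 0.0325). The upper bounds of both intervals lie below the log2 change of each of the 4 hosts that rose.

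The snoRNA rows inside these 6 hosts did not rise with them. Among the deposited rows, 24 typed as snoRNA in GENCODE M21 share exon bases with them, 9 in Gas5, 8 in Snhg1, 3 in Snhg12, 2 in Snhg5 and 1 each in Snhg8 and Snhg15. In that annotation 20 of the 24 lie only in exons of host transcripts classed as retained intron. Reads on these 20 were thus reads of intron sequence or of the snoRNA itself. The exceptions were the 3 rows of Snhg12, in exons of host transcripts classed as lincRNA, and Snora9 of Snhg15, in an exon of a processed transcript. Reads on the exceptions may also be of such host exons. Libraries were made from mRNA, in which mature snoRNAs, having no poly(A) tail, are poorly recovered. Which of these RNAs the reads came from cannot be told apart. This comparison was chosen after the values of the rows had been seen. The row with the most reads in each host apart from Snhg5 is printed 5′ to 3′, as read from the transcript sequences of GENCODE M21; these rows carry the comparison that follows. Capitals mark the C box (TGATGA) and D box (CTGA) that define C/D snoRNAs, which guide methylation, or the ACA near the 3′ end that defines H/ACA snoRNAs, which guide pseudouridylation; no C box with these letters was found in Snord22. The positions are chr1:161036057-161036139 (plus strand) for Gm22357 in Gas5, chr4:132310240-132310369 (plus) for Snora61 in Snhg12, chr3:123507937-123508066 (minus) for Snora24 in Snhg8, chr19:8725866-8725991 (plus) for Snord22 in Snhg1 and chr11:6528033-6528165 (minus) for Snora9 in Snhg15.
Gm22357: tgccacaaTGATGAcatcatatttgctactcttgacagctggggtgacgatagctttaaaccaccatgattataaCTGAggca
Snora61: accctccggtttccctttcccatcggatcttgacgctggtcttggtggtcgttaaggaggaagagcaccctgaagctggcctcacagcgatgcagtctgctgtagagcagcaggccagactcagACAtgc
Snora24: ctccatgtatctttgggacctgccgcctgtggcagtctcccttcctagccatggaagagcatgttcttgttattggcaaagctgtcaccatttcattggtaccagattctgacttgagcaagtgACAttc
Snord22: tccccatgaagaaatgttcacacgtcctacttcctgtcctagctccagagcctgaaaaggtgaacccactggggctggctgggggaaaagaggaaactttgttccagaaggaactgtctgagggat
Snora9: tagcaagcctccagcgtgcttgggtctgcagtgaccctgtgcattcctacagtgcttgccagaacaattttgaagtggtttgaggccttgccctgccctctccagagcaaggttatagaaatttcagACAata

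Gm22357, inside Gas5, had 229, 230 and 198 counts in control and 143, 127 and 172 after H/R, and it fell (log2 -0.44, SE 0.11, edgeR adjusted p = 9.83e-04) while Gas5 rose. Snord22, inside Snhg1, had 268, 265 and 275 counts in control and 176, 192 and 205 after H/R (log2 -0.36, SE 0.094, edgeR adjusted p = 0.00133). Snora24, inside Snhg8, went from 25, 46 and 42 to 21, 16 and 20 counts (log2 -0.85, SE 0.28, edgeR adjusted p = 0.00844), a call lost without control replicate 2 (0.0626). Each of these rows was lower in every H/R library than in any control library once scaled. Snora61, inside Snhg12, went from 59, 67 and 70 counts to 44, 33 and 37 (log2 -0.64, SE 0.20, edgeR adjusted p = 0.00507). Snora9, inside Snhg15, had 14, 22 and 18 counts in control and 23, 19 and 11 after H/R and did not pass (log2 0.11, SE 0.33, edgeR adjusted p = 0.783).

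Of the 24 rows 17 passed the filter, and 9 of them were lower and 0 higher; by the same rule 31.8% of all tested genes were lower. The 9 were Gm22357, Gm23212, Snord80, Gm26224 and Gm22489 in Gas5, Snord22 and Gm24453 in Snhg1, Snora24 in Snhg8 and Snora61 in Snhg12. Their log2 changes ranged from -0.36 (Snord22) to -0.85 (Snora24), and the median over the 17 rows was -0.38. The counts were small and the calls depended on the tool and the libraries: DESeq2 called 2 of the 17 as lower, Gm22357 and Snord22, and without H/R replicate 3 edgeR called 5. Gm22489 lost its call without any 1 library (adjusted p from 0.0585 to 0.143) and Gm26224 without any but control replicate 3 (0.0572 to 0.117). Gm24453 lost it without control replicate 3 (0.237), H/R replicate 2 (0.0998) or H/R replicate 3 (0.0584), Gm23212 without control replicate 3 (0.0634) or H/R replicate 3 (0.0506), and Snord80 without H/R replicate 2 (0.132). In no alternative was a row of the 17 called higher, nor was any at an unadjusted p under 0.05.

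Set against the host in the same library, the snoRNA rows made up a smaller share in every H/R library than in any control in 5 of the 6 hosts. Their summed counts were 12.9%, 12.1% and 11.3% of the Gas5 count in control and 4.56%, 4.47% and 5.27% after H/R, 2.54-fold lower (log2 -1.34). In Snhg12 the share was 28.4%, 28.0% and 25.9% in control and 10.0%, 9.17% and 7.9% after H/R, 3.05-fold lower (log2 -1.61). In Snhg8 it was 3.14%, 5.18% and 4.82% against 1.96%, 1.63% and 1.81%, 2.39-fold lower (log2 -1.26). The value of Snhg8 rested on 16 to 46 snoRNA-row reads per library.

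In Snhg1, where the 8 rows held the largest part of the host count, the share was 38.8%, 40.1% and 38.3% in control and 24.4%, 27.4% and 26.5% after H/R, 1.5-fold lower (log2 -0.58). In Snhg5 it rested on 7 to 20 reads per library, with 1.63%, 1.53% and 1.53% against 0.733%, 1.01% and 0.699% (log2 -0.96). Here too the groups did not overlap, but neither row had enough counts to be tested. Snhg15 was the exception, with 2.88%, 4.66% and 3.45% in control and 5.12%, 4.90% and 2.54% after H/R and overlapping groups (log2 0.15, exact permutation p = 0.8). For each of the other 5 hosts the two-sided exact permutation p was 0.1, the smallest that 3 against 3 libraries can give, so this test cannot pass 0.05 here. Leaving out any 1 library, control replicate 1 with the most ribosomal RNA included, gave log2 changes of the share from -1.42 to -1.29 in Gas5 and from -1.69 to -1.52 in Snhg12.

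**Figure D3:**
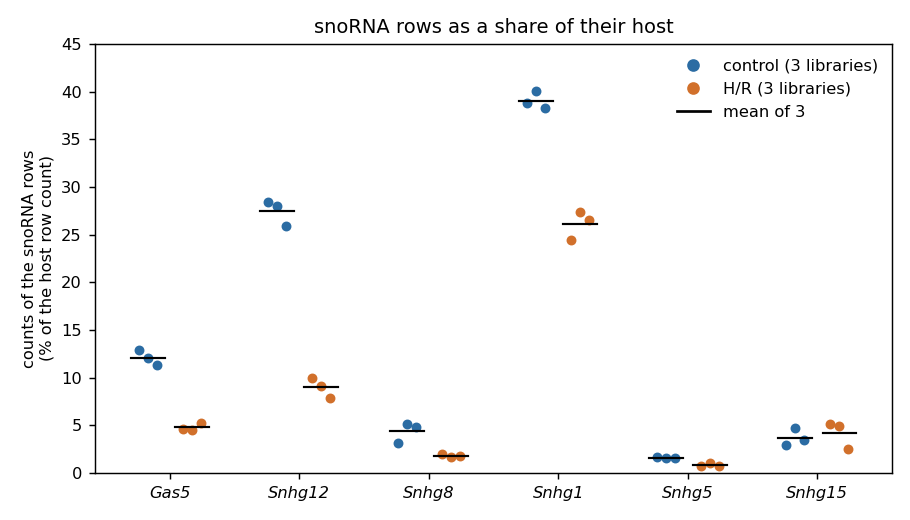
Summed counts of the snoRNA rows as a percentage of the count of their host, in each library, with control in blue, H/R in orange and black bars for the mean of 3. The H/R libraries lie below the controls in Gas5, Snhg12, Snhg8, Snhg1 and Snhg5 and overlap them in Snhg15.

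With the snoRNA-row counts subtracted from the host, which removes a read more than once where it overlaps a pair of these rows, the changes of the 4 hosts that rose were larger. Because the share of these rows was lower after H/R in these hosts, the larger rise follows from the subtraction and is not a separate result. Snhg1 then had 969, 905 and 1018 counts in control and 1289, 1191 and 1328 after H/R, and its log2 change rose from 0.26 to 0.54 (edgeR adjusted p = 9.56e-11). Snhg12 had 204, 221 and 254 counts in control and 539, 535 and 583 after H/R (log2 1.43 in place of 1.10, adjusted p = 8.07e-17). For Gas5 the value became 0.96 and for Snhg8 0.48, whereas Snhg5 (0.02) and Snhg15 (-0.09) still did not pass.

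The other snoRNA hosts of the tables give the comparison for these 6. Outside the 10 RNAs 64 snoRNA rows were tested, 10 of them lower and 4 higher, with a median log2 change of -0.21. Of these, 37 lie whole within the exons of a tested host, and the median difference between row and host was -0.52 on the log2 scale, with 26 of the 37 rows below their host. Inside the hosts described here the median difference was -1.07, with 16 of 17 rows below their host. Such a gap was not limited to them. Named after their values were seen, Gm22077 in Rpl3 (-1.31), Gm25744 in 1110038B12Rik (-1.28) and Gm25878 in Zfas1 (-1.21) lay as far below. The 26 of 37 other rows below their host stand beside rows above theirs, up to 2.07 for Snord14e in Hspa8. The difference between these sets was not tested, since rows of 1 host share its reads.

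**Figure D4:**
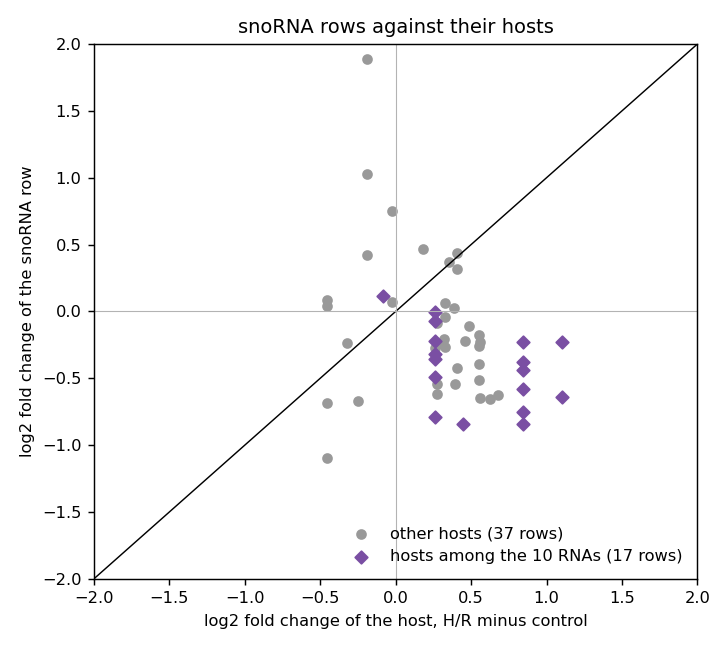
Log2 fold change (H/R minus control) of each snoRNA row against that of the host it lies in, with purple diamonds for the 17 rows inside the 10 RNAs and grey points for the 37 rows inside other hosts; the diagonal marks equal change. All purple diamonds but that of Snora9 lie below the diagonal.

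Beside the lists that follow, 31.0% of all tested genes were higher and 31.8% lower by the same rule. Among the other noncoding snoRNA hosts 13 had a row, 10 were tested, 4 were higher and 1 was lower, with a median log2 change of 0.23. The 5 that changed share exon bases with another row and are named here after their values were seen. Zfas1, host of the SNORD12 family, rose from a mean of 21.0 to 31.0 CPM (log2 0.56, edgeR adjusted p = 6.99e-09). Snhg17, Snhg20 and Snhg6 rose by 0.53, 0.34 and 0.33, Snhg6 no longer passing under DESeq2 (adjusted p = 0.11), with upper quartile scaling (0.0756), with library totals alone (0.13) or without control replicate 1 (0.0982) or H/R replicate 2 (0.108). Snhg4 fell by 0.45 (edgeR adjusted p = 9.96e-05).

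The protein-coding snoRNA hosts, most of which encode ribosomal proteins and translation factors, moved in the same direction as Gas5. Of 25 tested genes 19 were higher and 3 lower, with a median of 0.32. Eef2, which moves the ribosome along the message, rose by 0.61, the tumour protein gene Tpt1 by 0.45 and the ribosomal protein gene Rps12 by 0.41 (edgeR adjusted p of 6.69e-10 or smaller). The 3 that were lower were Nop56 (log2 -0.46), a core protein of C/D snoRNA particles, the RNA-binding protein gene Cnbp (-0.19) and the chaperone gene Hspa8 (-0.19), named after their values were seen. Of 14 tested genes of nonsense-mediated decay, 4 were higher and 5 lower, with a median of -0.10. Upf2 (0.39), Smg8 (0.38) and Casc3 (0.76) were among those that rose, while Magoh fell by 0.28, the helicase gene Upf1 by 0.38 (edgeR adjusted p = 3.85e-08), Smg6 by 0.46, Smg9 by 0.16 and Eif4a3 by 0.14. Smg1, the kinase of the pathway, did not pass (log2 -0.02, adjusted p = 0.68), except, as lower, with library totals alone (-0.13, adjusted p = 0.0116).

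Many translation-linked genes, snoRNA hosts among them, begin their RNA with a run of pyrimidines, the 5′ terminal oligopyrimidine tract. RefSeq start sites (GRCm38.p6) were given for 8 of the 10 RNAs, in 9 entries. A run of 6 or more C or T between 10 bases before and 20 bases after the start was found for Gas5 at the downstream of its 2 starts, Snhg12, Snhg8, Snhg1 and Snhg5, and not for the upstream Gas5 start, Snhg15, Malat1 or Kcnq1ot1; 28.7% of 32851 promoters hold such a run. The 30 bases on either side of the start are printed for the hosts with a run and for Snhg15, which had none and did not rise, with the run in capitals. They lie at chr1:161035136-161035195 (plus strand) for Gas5, chr4:132308648-132308707 (plus) for Snhg12, chr3:123508307-123508366 (minus) for Snhg8, chr19:8723457-8723516 (plus) for Snhg1, chr9:88522868-88522927 (minus) for Snhg5 and chr11:6528731-6528790 (minus) for Snhg15.
Gas5: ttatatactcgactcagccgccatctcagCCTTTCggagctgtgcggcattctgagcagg
Snhg12: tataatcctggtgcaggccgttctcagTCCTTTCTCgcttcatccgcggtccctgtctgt
Snhg8: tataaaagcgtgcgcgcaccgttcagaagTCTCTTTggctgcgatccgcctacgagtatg
Snhg1: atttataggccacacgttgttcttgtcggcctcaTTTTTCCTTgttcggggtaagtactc
Snhg5: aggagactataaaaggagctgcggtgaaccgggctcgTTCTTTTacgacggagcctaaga
Snhg15: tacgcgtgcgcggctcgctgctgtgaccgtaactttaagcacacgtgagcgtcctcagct

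All 4 hosts that rose thus had a run within this window, as did Snhg5, which did not pass the test. The run spanned the start site in Gas5, Snhg12 and Snhg8. In Snhg1 it began only at base 5 of the RNA and in Snhg5 at base 8, so these runs were not at the terminus. The core of the hypoxia response element (ACGTG or GCGTG on either strand, within 250 bases before and 50 after the start) was present in 43.8% of all promoters and in each entry here except Snhg12 and the upstream Gas5 start. The cAMP response element TGACGTCA, found in 1.79% of promoters, lay 46 bases before the downstream Gas5 start and 88 bases before the Snhg15 start. The E-box CACGTG (7.15% of promoters; it contains the hypoxia response element core) was found in Snhg15 alone among the entries, and neither the AP-1 site TGANTCA (7.81%) nor the heat shock element (0.603%) matched in any of them. A match describes the letters only.

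Neat1 (chr19:5824708-5845478, minus strand) rose as well. It measured 370.1, 406 and 377 CPM in control and 505, 512 and 611 after H/R. All H/R libraries exceeded the controls, replicate 3 by the widest margin, and the rise was 1.41-fold (log2 0.50, SE 0.067, edgeR adjusted p = 1.8e-05); without H/R replicate 3 the log2 value was 0.41. Within Neat1 the tables hold 3 rows for conserved domains near the 5′ end, a stretch common to its short and long isoforms. Gm28006, which begins 441 bases from the 5′ end, had 1504, 1456 and 1607 counts in control and 1823, 1863 and 2372 after H/R and rose by 0.54, and Gm27505 and Gm27533 rose by 0.49 and 0.52 (edgeR adjusted p of 3.96e-05 or smaller).

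The shares of these 5′ rows in the Neat1 count differed little between the groups. Their reads are also part of that count. Gm28006 covers 122 of the 20771 exon bases of Neat1 but held a mean of 17.9% of its count in control. A steady share of such rows therefore says little about the long isoform. Gm28006 held 18.2%, 16.5% and 19% of the Neat1 count in control and 18.4%, 18.5% and 18.3% after H/R (exact permutation p = 0.7), and the shares of Gm27505 and Gm27533 differed by 0.00 and 0.02 on the log2 scale (exact permutation p = 1 and 0.9). Neither isoform can be told apart from the other in these counts.

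Malat1 (chr19:5795690-5802672, minus strand), the neighbour of Neat1 at 22.0 kb, spread widely within groups. It measured 348, 352 and 233 CPM in control and 309, 267 and 337 after H/R, with control replicate 3 lowest of all. The groups overlapped (log2 -0.03, 95% interval -0.44 to 0.38, edgeR adjusted p = 0.913), and the sign turned when control replicate 1 or 2 or H/R replicate 2 was left out. The ratio of Neat1 to Malat1 counts within a library was 1.06, 1.15 and 1.62 in control and 1.63, 1.92 and 1.81 after H/R. The highest control lay just below the lowest H/R library, with a log2 difference of 0.51 and an exact permutation p of 0.1, the smallest possible. Libraries were made from mRNA, and how fully either RNA was recovered in them was not tested. The ratio of counts need therefore not be the ratio of the RNAs in the cells.

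A pair of rows on the opposite strand share bases with Malat1. Gm20417 went from 1.89%, 1.62% and 1.53% of the Malat1 count to 0.872%, 1.13% and 1.25%, and Gm37376 from 21.3%, 24.3% and 24.4% to 26.8%, 28.0% and 26.1% (exact permutation p = 0.1 for each). Whether reads were counted by strand is not given in the sources used here, so reads of Malat1 and of its antisense rows cannot be told apart.

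Of 23 tested genes for paraspeckle proteins, 5 were higher and 10 lower, with a median log2 change of -0.04. Sfpq, an essential partner of Neat1, fell from 1021, 1073 and 1026 to 561, 555 and 542 CPM (log2 -0.91, SE 0.045, edgeR adjusted p = 8.74e-19), with wide separation of the groups. Nono, its heterodimer partner, measured 1200.0, 1177 and 1153 in control and 1184, 1147 and 1107 after H/R (log2 -0.04, edgeR adjusted p = 0.481), and passed, as lower, only with upper quartile scaling (-0.11, adjusted p = 0.039) or library totals alone (-0.14, adjusted p = 0.00258). Pspc1 was slightly higher (log2 0.12, edgeR adjusted p = 0.0309), a call lost under DESeq2 (0.058), under the scaling alternatives (0.394 with upper quartile, 0.82 with library totals) and without control replicate 3 (0.123) or H/R replicates 1 (0.108) or 2 (0.186). Fam98a fell by 0.92, and Ss18l1 and Hnrnpa1 rose by 0.72 and 0.37 (edgeR adjusted p of 6.62e-06 or smaller). The other genes of this list that were higher, named after their values were seen, were Ewsr1 (0.18) and Zc3h6 (0.46).

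Among 20 tested genes of nuclear speckles, the site of Malat1, 6 were higher and 9 lower, again with a median of -0.04. The splicing factor gene Srsf3 fell from a mean of 239.9 to 135 CPM (log2 -0.83, edgeR adjusted p = 7.61e-18), and Clk1, a kinase of such factors, rose from 55.0 to 101 (log2 0.88, adjusted p = 5.41e-17). Srrm1 rose by 0.46. Srsf1 (log2 -1.44) and Clk4 (1.30) were the members past 2-fold and are named after their values were seen, since they share exon bases with another row.

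**Figure D5:**
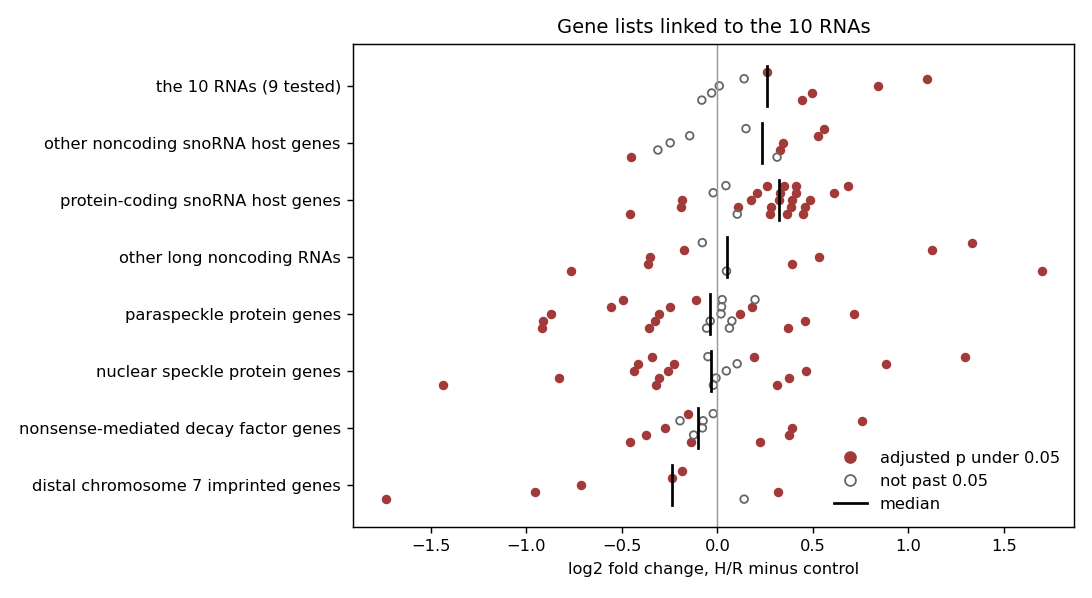
Log2 fold change (H/R minus control) of each tested gene of the lists linked to the 10 RNAs; filled points had an adjusted p under 0.05, open points did not, and black bars are the medians. The protein-coding snoRNA hosts lie mostly to the right of 0 (median 0.32), and the paraspeckle and nuclear speckle genes spread to both sides (median -0.04 in each).

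H19 (chr7:142575529-142578143, minus strand) was close to absent. It had 5, 1 and 0 counts in control and 0 in each H/R library, where a count of 0 allows up to 0.146, 0.147 and 0.138 CPM by library total in replicates 1, 2 and 3 for counting error alone. It did not pass the filter, and no fold change is given. The 5 counts came from control replicate 1, the library that also held the Serpina1a and Cyp2e1 reads given above; their part in the H19 value was not tested. Among 4 tested genes of the imprinted network linked to H19, the paternally expressed Peg3 rose from a mean of 789 to 1218 CPM (log2 0.63, edgeR adjusted p = 2.73e-14), and 3 did not pass.

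Kcnq1ot1 (chr7:143212155-143296549, minus strand), which silences neighbouring genes on the paternal chromosome, was low and did not pass. Its level was 4.39, 5.39 and 3.65 CPM in control and 3.97, 5.30 and 5.48 after H/R, with overlapping groups (log2 0.14, 95% interval -0.16 to 0.44, edgeR adjusted p = 0.447). Kcnq1, in whose intron it starts and with which it shares exon bases, had 2 counts or fewer in every library. Of 7 tested imprinted genes of this cluster, Kcnq1ot1 itself included, 1 was higher and 5 were lower, with a median of -0.24. Kcnq1ot1 was the 1 gene of these not called. Dhcr7, a gene of cholesterol synthesis at the edge of the cluster, fell by 1.74 (edgeR adjusted p = 7.04e-22), Nap1l4 fell by 0.18 and Osbpl5 rose by 0.32. The others that fell, named after their values were seen, were Trpm5 (-0.96), Tssc4 (-0.71) and Cd81 (-0.24).

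The tested genes nearest to the 10 RNAs did not move as 1 block with them. Slc3a2, which begins 106 bp from Snhg1 on the opposite strand and encodes the heavy chain of amino acid transporters, rose by 0.67 (edgeR adjusted p = 9.78e-15). On the sides of Snhg12, Taf12 fell by 0.40 (edgeR adjusted p = 5.63e-07), and Trnau1ap did not pass (-0.10, adjusted p = 0.348), though it did, as lower, without control replicate 2 (-0.21, adjusted p = 0.0351). Mettl14, 121 kb from Snhg8, rose by 0.24, and Ccm2, 18.1 kb from Snhg15, fell by 0.26. On the sides of Snhg5, Syncrip at 38.5 kb fell by 0.20 and Zfp949 at 25.1 kb rose by 0.66 (edgeR adjusted p between 0.0026 and 2.31e-05 for these 4). Mrpl23, 34.8 kb from H19, rose by 0.19 (adjusted p = 0.0101), a call lost without control replicate 2 (0.0542) or H/R replicate 2 (0.0535) and with upper quartile scaling (0.103) or library totals (0.264).

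Among 11 other tested long noncoding RNAs 5 were higher and 4 lower, with a median of 0.05. Firre, an X-linked RNA that organises nuclear architecture, fell by 0.35 (edgeR adjusted p = 0.00035). The RNAs past 2-fold, all higher and named after their values were seen, were Pvt1 (log2 1.12), Mir22hg (1.33) and Trp53cor1 (1.70), the last at a mean of 0.556 CPM in control. Dleu2 (0.39) and Mir17hg (0.53) also rose, and Lockd (-0.77), Ftx (-0.37) and Tug1 (-0.18) fell.

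Levels were compared between the RNAs on the deposited RPKM scale, which divides counts by exon length and library total. That length covers all annotated exon bases of a row, with retained introns of hosts such as Snhg1 (2969 bases) and the long isoform of Neat1 (20771 bases) included. The expressed transcripts may be shorter, so the order of the RNAs depends on these lengths. It also depends on how fully each RNA was recovered in mRNA libraries, which was not tested. In control the means were 48.4 ± 3.71 for Gas5, 46.7 ± 3.56 for Snhg8 and 46.1 ± 9.49 for Malat1 (SD, n = 3), and these overlapped. Below them followed Snhg5 (30.4 ± 1.81), Snhg1 (24.9 ± 1.02), Neat1 (19.2 ± 0.985), Snhg15 (17 ± 0.914) and Snhg12 (8.97 ± 0.938), each with all libraries above the next. Kcnq1ot1 (0.0549 ± 0.0103) and H19 (0.0388 ± 0.0509) were lowest and overlapped. After H/R, Gas5 (80.7 ± 3.17) stood above Snhg8 (59.1 ± 2.5) and both above Malat1 (42.0 ± 5.16). Snhg5 (28.5 ± 2.07), Snhg1 (27.7 ± 0.540) and Neat1 (25.2 ± 2.99) overlapped their neighbours in order, and Snhg12 (17.9 ± 0.119) had moved above Snhg15 (14.9 ± 1.09).

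The genes whose scaled level followed that of Snhg12 most closely over the 6 libraries were Egln3, the prolyl hydroxylase that marks HIF proteins for destruction in normoxia, Porcn, which acylates Wnt proteins, and Pvt1. Their root mean square differences from Snhg12 in mean-centred log2 CPM were 0.044, 0.046 and 0.050. They were picked by this value from all tested genes, and it mainly selects a change of like size between the groups. The log2 changes were 1.095 for Egln3, 1.094 for Porcn and 1.124 for Pvt1, beside 1.100 for Snhg12. Shared regulation was not tested. Egln3 measured 35.9, 40.6 and 40.0 CPM in control and 84.2, 80.7 and 83.8 after H/R.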

How the data were processed

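RNA from 6 AML12 samples (3 control, 3 H/R) had been made into stranded mRNA libraries and sequenced with paired ends. The submitters' processing notes name Trimmomatic 0.36, featureCounts of Subread 1.5.1 and edgeR 3.12.1, with GRCm38; the aligner is printed in the study as STRA, and the gene annotation is not given in the sources used here. The deposited counts are whole numbers per gene without normalization, and the deposited RPKM values follow from the count, exon length and library total of the same table. Groups were taken from the labels. Members and lists were chosen with earlier results of these data known.

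Counts were compared with edgeR 4.0.16 in R 4.3.3 (filterByExpr, TMM, quasi-likelihood test with robust dispersions, Benjamini-Hochberg adjustment over 14020 genes, threshold 0.05; common biological coefficient of variation 0.0502). CPM values are scaled by TMM. Single ratios were compared with exact two-sided permutation tests. The fit was run on simulated data with few changed genes and the same dispersion for every gene. In these data 62.8% of tested genes were called and dispersions varied, so that run does not check scaling or error rates here. At this depth, 20438746 to 21854790 counts per library, 3 counts was taken as the floor, and intervals cover counting error only where stated. Replicate numbers are shared between groups, but the deviations of same-numbered libraries correlated at -0.03, 0.00 and -0.01, so the numbers were not taken to pair them. Named genes were the 10 RNAs, up to 3 called genes of each list with the largest change and no shared exon, a few partners (such as Sfpq and Upf1), tested neighbours, rows inside the RNAs and the 3 genes most like Snhg12; a few genes given by this rule are not reported here. Alternatives were DESeq2 1.42.0, other scalings and filters, non-robust dispersions, the replicate block, leaving out rows that share exons, and leaving out each library. Subtraction of snoRNA rows and the shares of hosts were added after the data were seen. Gene types and snoRNA sequences came from GENCODE M21, start sites from RefSeq.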

Additional observations from a re-analysis of the deposited data

How the results depend on the processing

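The 5 RNAs called, all higher, stayed called in every alternative that gave a value. With library totals alone, Snhg12 dropped under 2-fold, leaving 0 RNAs past both thresholds, and Snhg15 passed as lower (log2 -0.187), so that 1 RNA was lower. Snhg5, near 0, changed sign to -0.06 after upper quartile scaling and to -0.095 after scaling by totals. Leaving out each library in turn moved the log2 value between -0.202 and 0.068 for Malat1 (turned positive: 0.059 and 0.068 without control replicates 1 and 2, 0.054 without H/R replicate 2) and between -0.052 and 0.067 for Snhg5 (turned negative: -0.026, -0.011 and -0.052 without control replicates 2 and 3 and H/R replicate 1), while Neat1 stayed between 0.406 and 0.547, Gas5 between 0.795 and 0.899 and Snhg12 between 1.03 and 1.16. The snoRNA rows called as lower went from 9 to 2 with DESeq2, to between 5 and 8 when each library was left out, and to 11 with upper quartile scaling as with library totals alone.

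With the replicate block the log2 changes were close to those without it, at 0.844 for Gas5, and 5 of the RNAs were called. The snoRNA rows called as lower went from 9 to 8, the called protein-coding snoRNA hosts from 22 to 23, the nuclear speckle genes from 15 to 16 and the decay factors from 9 to 10, and Gm20417 and Gm22489 no longer passed (adjusted p = 0.0905 and 0.0545). In the imprinted network linked to H19, 1 or 2 genes were called when each library was left out, and 1 of the RNAs without a poly(A) tail was called with non-robust dispersions against 0. As each library was left out, Smg1 lay between -0.054 and 0.001 and Snora9 between -0.138 (-0.044 without control replicate 1) and 0.397. Leaving out rows that share exons removed all 10 RNAs from the test and took the called genes from 8806 to 5366 of all tested and those past 2-fold from 1195 to 772, since fewer genes were tested. For the other changes the cause was not tested. Of 943 values of 65 further named genes under the alternatives, 879 kept direction and side of the threshold, 56 no longer passed, 5 newly passed and 3 changed sign. H19 had too few counts to be tested.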
